A study of Mus musculus with 2 samples.

Results

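The 55 genes described here handle glutathione, peroxides and reactive carbonyls. They were taken from the 31053 features of the count tables by symbol: the glutathione transferases (22 genes, symbols starting with Gst), the family 1 aldo-keto reductases (15 genes, Akr1) and the glutathione peroxidases (8 genes, Gpx), with 10 genes named singly, Nqo1, Gclc, Gclm, Gsr, Txnrd1, Srxn1, Slc7a11, Nfe2l2, Keap1 and Prdx1. The values come from single-cell RNA sequencing of full-thickness back skin from 1 mouse with a knock-in Card14 allele (genotype given as Card14 KI +/+, here Card14KI) and 1 wild-type (WT) mouse. Both were C57BL/6 and 12 months old; what the allele changes in the protein was not stated. The skin was dissociated enzymatically and dead cells were removed before 10x Genomics 3' v3.1 libraries were made. The series is about IL-17 and IL-36 signaling in a mouse model of the skin disease pityriasis rubra pilaris, and CARD14 is a scaffold protein of keratinocyte NF-kB signaling. With 1 mouse and 1 library per genotype there was no replicate check and no test: each difference below is between these 2 libraries, and the intervals given cover counting error only.

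Glutathione is made from cystine-derived cysteine. The antiporter encoded by Slc7a11 imports cystine, glutamate-cysteine ligase (catalytic subunit Gclc, modifier subunit Gclm) carries out the rate-limiting step, and Gsr returns oxidized glutathione to its reduced form. Glutathione transferases attach it to electrophiles, glutathione peroxidases use it to reduce hydroperoxides, and aldo-keto reductases reduce aldehydes and ketones, steroids among them. The transcription factor NRF2 (Nfe2l2), held in check by KEAP1, drives many of these genes through antioxidant response elements, and in skin it is known for its part in keratinocyte defence and in the sebaceous gland.

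The libraries held 3348 Card14KI and 5016 WT barcodes, with 41460580 and 54816411 UMIs, and shared 2 barcode sequences. After filtering, 2835 Card14KI and 4161 WT cells remained, with a median of 6876 and 7318 UMIs. Cells were assigned to classes by marker genes, none of them among the 55, which placed 2607 Card14KI cells (92.0%) and 3734 WT cells (89.7%); 153 of the placed Card14KI cells (5.87%) and 239 of the WT cells (6.40%) lay near the limit of their class. The 9 classes compared had enough cells in both libraries, and their sizes stand beside the results. The outer root sheath and companion class (0 Card14KI and 64 WT cells) and the inner root sheath class (1 Card14KI and 155 WT cells) were almost absent from the Card14KI library, so that levels there are those of the WT mouse alone. The endothelial class was led by lymphatic genes (Ccl21a, Mmrn1) in both libraries. Card14 itself had its highest level in granular cells, at 117 CPM in Card14KI and 82.9 CPM in WT, which checks no label, since a knock-in allele is still transcribed. A level is given as CPM, the gene's UMIs per 1000000 UMIs of all cells of the class. Because 3' tags were counted, levels are compared within a gene and not between genes.

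Of the 55 genes, 46 had 20 or more UMIs in the kept cells of both libraries together. At 0 were 5 (Gstm3, Akr1b7, Akr1c21, Gpx5 and Gpx6), and Akr1d1, Gstt4, Akr1c20 and Akr1c6 had 6, 7, 3 and 1 UMIs. In 7 groups, family members lie near each other in the genome (mm10, GENCODE M21). The Akr1c cluster holds 8 genes over 538 kb (chr13:4049011-4586541), the Gstm cluster 7 genes over 149 kb (chr3:107895821-108044894), and the Gstp cluster 3 genes over 24.2 kb (chr19:4035407-4059569). The last 300 bases of 6 members resemble those of another gene, so 3' reads could be split or lost between copies: Gstp1 and Gstp2 (100% identity over 300 bases), Gsta1 and Gsta2 (97.7%), with Gsta1 also at 99.7% identity to Gm3776, Gstt3 (100% to Gm20441 over 201 bases) and Gstt2, which shares a stretch of 104 to 107 bases with 3 unrelated genes. The levels of these 6 are uncertain.

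Sequence of the promoters was read for the core letters of the antioxidant response element, TGACNNNGC, on both strands, from 250 bases before to 50 bases after each annotated start (RefSeq, GRCm38.p6). The AP-1 letters TGACTCA can lie within such a match, and they do in the Prdx1 window below, read on the opposite strand. Of the 49 members with an entry, 9 held a match (18.4%), against 3781 of all 27025 genes (14%); Akr1b3, Akr1c20, Gclc, Gsr, Gsta4 and Gstt2 had no entry. Matches after the start were found in Srxn1 and Akr1c19 and are not shown, and Gstm7, which has a match before its start, is not shown since no result turns on it. The following windows are the other matches before the start, in genes that carry results below. They are written 5' to 3' on the strand of the gene, with the match in capitals; in Gclm, Prdx1 and Txnrd1 the match is on the opposite strand. They lie at chr3:122245398-122245456 (plus strand) for Gclm, chr1:21240439-21240497 (plus) for Gsta3, chr3:107895787-107895845 (plus) for Gstm5, chr10:82859089-82859147 (plus) for Txnrd1, chr4:116685441-116685499 (plus) for Prdx1 and chr2:75704870-75704913 (minus) for Nfe2l2.
Gclm: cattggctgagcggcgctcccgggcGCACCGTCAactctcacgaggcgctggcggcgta
Gsta3: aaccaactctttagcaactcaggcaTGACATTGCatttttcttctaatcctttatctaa
Gstm5: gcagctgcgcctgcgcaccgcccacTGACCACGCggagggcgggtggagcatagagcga
Txnrd1: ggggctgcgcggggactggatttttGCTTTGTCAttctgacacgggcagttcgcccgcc
Prdx1: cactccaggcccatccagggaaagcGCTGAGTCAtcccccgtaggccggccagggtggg
Nfe2l2: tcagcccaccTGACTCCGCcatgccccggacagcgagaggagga
The matches start at positions -134 (Gclm), -121 (Gsta3), -42 (Gstm5), -92 (Txnrd1), -133 (Prdx1) and -240 (Nfe2l2) from the start used. These genes did not share a direction in the comparison of the libraries. Gclm and Gsta3 were lower in Card14KI basal cells, Gstm5 was higher in Card14KI upper follicle cells and sebocytes, Txnrd1 was lower and Prdx1 higher in Card14KI granular cells, and Nfe2l2 was higher in Card14KI fibroblasts, with the values below. A match describes the letters and does not show binding.

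Where the genes were read was compared between the libraries. For 34 of the 46 measured members the class with the highest level was the same in the Card14KI and the WT library, counting only classes in which the gene had 10 or more UMIs. The same share over all genes was not computed. The root sheath classes had levels in WT alone, so Gpx2 and Gclc, highest in WT outer root sheath and companion cells, could not match. Sebocytes held 10 of these 34 (Gsta3, Gsta4, Gstk1, Gstt3, Gstz1, Prdx1, Akr1c13, Akr1c18, Akr1c19, Akr1e1) and fibroblasts another 10 (Gstm2, Gstm4, Gstp2, Gstt1, Gsto2, Gpx3, Gpx7, Gpx8, Akr1b8, Akr1c14). A gene at a low level can reach 10 UMIs only in a class with many UMIs. The placement of low genes such as Gsto2, Gstm4 and Gstp2 was therefore not set against classes with few UMIs, such as neutrophils. Neutrophils held 5 of the 34 (Nfe2l2, Slc7a11, Gclm, Gsr, Srxn1), endothelium 2 (Nqo1, Gstt2) and spinous keratinocytes 2 (Gsta1, Gsta2). The limit of 10 UMIs left out Gsta1 in Card14KI melanocytes, at 202 CPM from 9 UMIs.

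**Figure D1:**
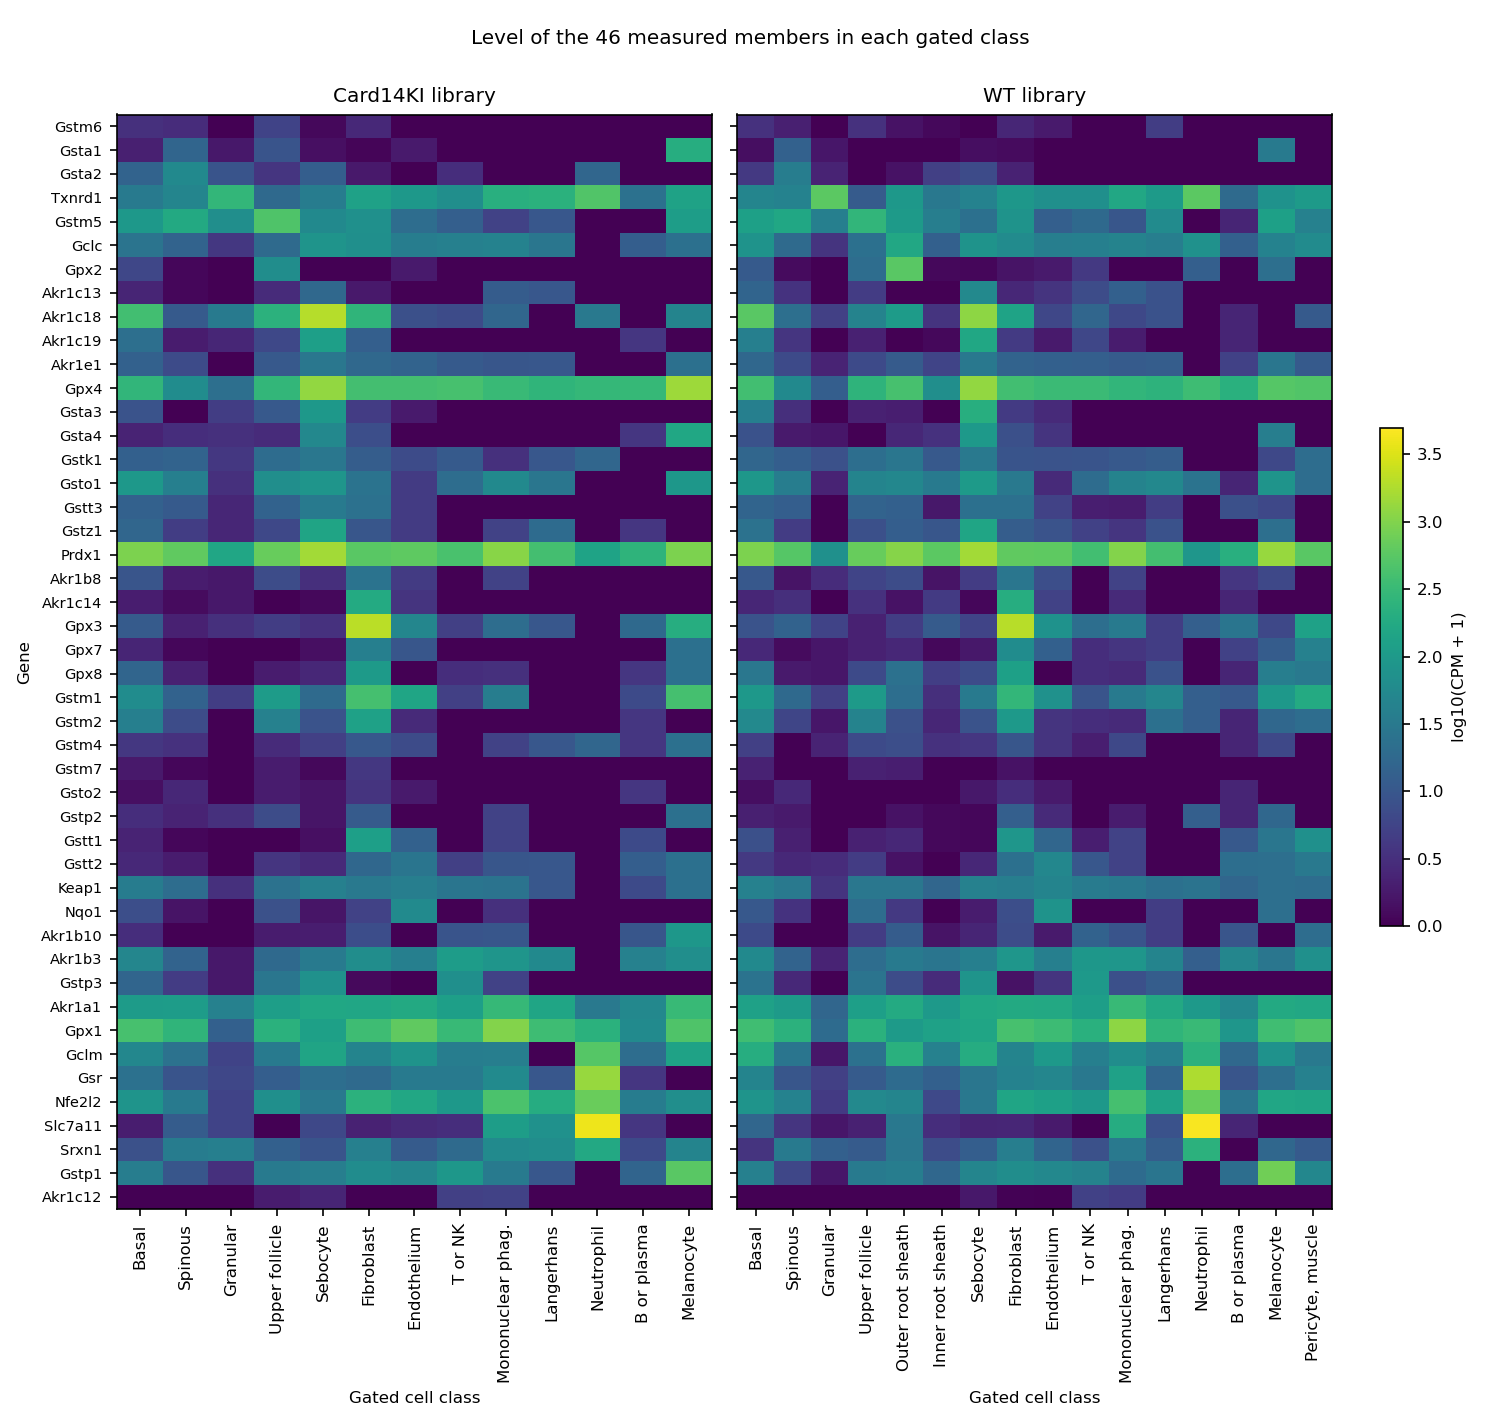
Level of the 46 measured genes (rows) in each gated class (columns) of the Card14KI library (left) and the WT library (right), as log10(CPM + 1). Slc7a11 is brightest in neutrophils, Gpx3 in fibroblasts and Akr1c18 in sebocytes in both libraries, and Gpx2 in the outer root sheath, a class with cells in the WT library alone.

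Among the genes of glutathione supply, Slc7a11 stood out by its place. It was read at 4080 CPM in Card14KI neutrophils (95% Poisson interval 3604 to 4602, 265 UMIs in 32 cells) and at 4678 CPM in WT neutrophils (4219 to 5172, 380 UMIs in 46 cells). In every other class of either library it stayed at or below 193 CPM, the level in WT mononuclear phagocytes. At least 1 Slc7a11 UMI was found in 31 of 32 Card14KI neutrophils (96.9%, exact binomial interval 83.8 to 99.9%) and in 44 of 46 WT neutrophils (95.7%, 85.2 to 99.5%), although neutrophils were shallow, with a median of 1920 and 1761 UMIs. In fibroblasts, which had a median of 5590 and 7257 UMIs, the share was 0.679% in Card14KI and 1.06% in WT, a level that can be read as background. Gsr followed the same pattern, with 1355 CPM in Card14KI neutrophils (1087 to 1669) and 1760 CPM in WT neutrophils (1484 to 2074). The neutrophil intervals of the libraries overlapped for both genes.

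Other genes of the supply and recycling arms were also high in neutrophils. Gclm was read at 524 CPM in Card14KI neutrophils (363 to 732, 34 UMIs) and 234 CPM in WT neutrophils (141 to 365, 19 UMIs), intervals that just overlap. Inside the WT neutrophil interval also lay the Gclm levels of WT outer root sheath and companion cells (219 CPM, 417 UMIs), basal cells (201 CPM) and sebocytes (195 CPM). In WT, Gclm thus did not stand out in neutrophils. Nfe2l2 was at 724 and 689 CPM in Card14KI and WT neutrophils, and in mononuclear phagocytes at 453 and 407 CPM. Keap1, the adaptor that hands NRF2 to degradation, had no such peak: its highest level was 39.4 CPM in Card14KI (sebocytes) and 46.3 CPM in WT (endothelium). Srxn1, which reactivates oxidized peroxiredoxins, was at 169 CPM in Card14KI and 234 CPM in WT neutrophils, from 11 and 19 UMIs. Txnrd1, thioredoxin reductase, was at 493 and 579 CPM in the neutrophils of Card14KI and WT, and in granular keratinocytes at 282 and 582 CPM. Nqo1, a quinone reductase and a commonly used NRF2 target, was low wherever it was read except in endothelium, at 58.1 CPM in Card14KI and 79.7 CPM in WT.

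The glutathione peroxidases were read in different classes. Gpx3, the secreted plasma form, was read at 2045 CPM in Card14KI fibroblasts (2013 to 2077) and 2012 CPM in WT fibroblasts (1991 to 2034), and no other class with 20 or more of its UMIs passed 76.3 CPM. Gpx1, the cytosolic form, was highest in mononuclear phagocytes, at 1023 CPM in Card14KI and 1159 CPM in WT. Gpx4, which reduces lipid hydroperoxides within membranes, was at 1252 CPM in Card14KI sebocytes and 1272 CPM in WT sebocytes, at 1416 CPM in Card14KI melanocytes (63 UMIs) and 528 CPM in WT melanocytes, and between 268 and 415 CPM in the basal, upper follicle, fibroblast, endothelial, T or NK and mononuclear phagocyte classes of the Card14KI library. Gpx2, best known from gut epithelium, was at 570 CPM in WT outer root sheath and companion cells (537 to 605), where 28 of 64 cells (43.8%, 31.4 to 56.7%) carried a UMI and 1 cell held 280 of the 1086 UMIs. No Gpx2 UMI was found in 1325 Card14KI fibroblasts (upper exact binomial limit 0.278%, which bounds cells with a UMI and not cells expressing the gene), and 9 of 2067 WT fibroblasts (0.435%) had one. The endoplasmic reticulum forms Gpx7 and Gpx8 were fibroblast genes, Gpx8 at 102 CPM in Card14KI and 126 CPM in WT and Gpx7 at 39.1 and 61.0 CPM.

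The transferases too differed in the class where their level was highest. Gstz1, which also acts in tyrosine breakdown, was at 144 CPM in Card14KI sebocytes and 150 CPM in WT sebocytes and at or below 23.9 CPM in every other class of both libraries. Gstm1 was highest in fibroblasts among the compared classes (403 CPM in Card14KI, 283 CPM in WT), as were its neighbour Gstm2 (131 and 96.8 CPM) and Gstt1 (122 and 86.5 CPM). Gstm5, of the same Gstm cluster, was instead highest in the upper follicle, with 475 and 270 CPM in Card14KI and WT. Gstp1, the pi-class form, was at 562 CPM in Card14KI melanocytes and 797 CPM in WT melanocytes, from 19 and 12 cells. Gstp3, near it on chromosome 19, was found in sebocytes (74.4 CPM in Card14KI, 80.5 CPM in WT) and in T or NK cells (68.8 and 97.6 CPM), and at 0.258 and 0.530 CPM in fibroblasts. Gsto1, which can reduce dehydroascorbate, was spread over basal cells (94.5 and 89.4 CPM) and sebocytes (82.9 and 102 CPM).

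Aldo-keto reductases of 1 cluster were read in different cells. Among whole classes Akr1c18, a 20-alpha-hydroxysteroid dehydrogenase that inactivates progesterone, was highest in sebocytes, with 1955 CPM in Card14KI and 1158 CPM in WT. A UMI was found in 170 of 189 Card14KI and 193 of 211 WT sebocytes, against 3 of 135 and 14 of 279 T or NK cells. Cells of the basal class that carried sebaceous markers were higher still in both libraries, with the values below. Akr1c14, a 3-alpha-hydroxysteroid dehydrogenase in the same cluster, was at 183 CPM in Card14KI fibroblasts and 204 CPM in WT fibroblasts, and at or below 4.29 CPM in every other class of both libraries. Akr1c19 was at 122 and 158 CPM in sebocytes of Card14KI and WT, and it too was higher in the basal cells with sebaceous markers. Akr1b3, aldose reductase, was highest in T or NK cells (111 CPM in Card14KI, 88.4 CPM from 86 UMIs in WT). WT fibroblasts (86.3 CPM) and WT mononuclear phagocytes (85.5 CPM) were close to that WT level. Akr1a1, a general aldehyde reductase, passed 100 CPM in each compared class of both libraries except granular cells. Prdx1, which reduces hydrogen peroxide with thioredoxin, was highest in sebocytes, with 1552 CPM in Card14KI and 1518 CPM in WT. Among the compared classes Prdx1 was lowest in granular cells, at 152 CPM in Card14KI and 70.3 CPM in WT.

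**Figure D2:**
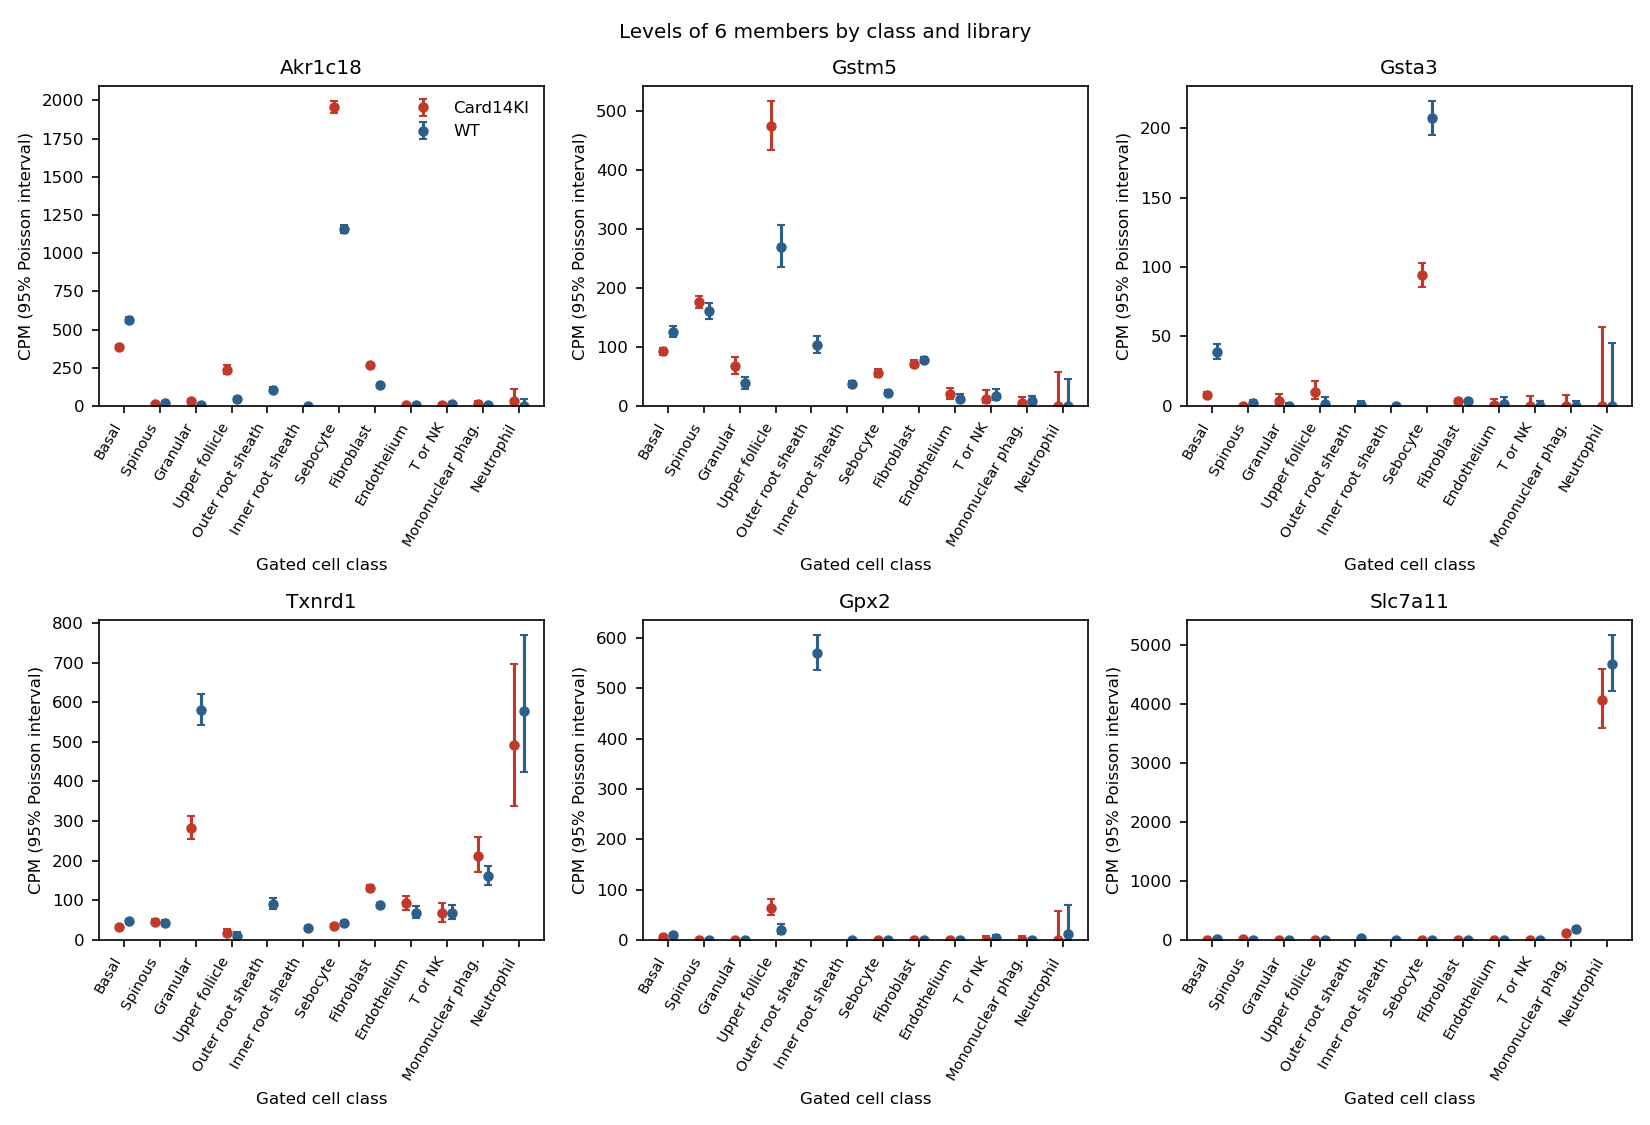
CPM with 95% Poisson intervals (vertical axis, linear from 0) of Akr1c18, Gstm5, Gsta3, Txnrd1, Gpx2 and Slc7a11 in 12 classes, Card14KI in red left of WT in blue. The root sheath classes have WT points alone; Akr1c18 and Gstm5 lie higher in Card14KI sebocytes and upper follicle, and Gsta3 and Txnrd1 lower in Card14KI sebocytes and granular cells.

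The libraries were then compared class by class. A gene was measured in a class with 20 or more UMIs over both libraries, and was called higher or lower when log2(CPM + 10) differed by 1.5-fold or more, Card14KI over WT. The added 10 CPM understates the change of low genes, so plain CPM ratios with exact 95% intervals are given with it. The share of all measured genes past the same limit in the same class stands beside the first count for that class.

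Over the whole class, basal keratinocytes (267 Card14KI and 215 WT cells) held lower levels of both ligase genes in the Card14KI library. Of 41 measured members 9 were lower and 1 was higher, while 5.99% of all measured genes were lower and 2.91% higher. The median log2 ratio was -0.27 over the members and -0.12 over all genes. Scaling the class by the median gene in place of the total shifted the basal ratios by 0.18 and left 7 members lower and 1 higher; of all genes past the limit, 32.7% were higher by total scaling and 52.4% by median scaling. Gclm was at 50.7 CPM in Card14KI and 201 CPM in WT, 3.96-fold lower (3.55 to 4.43). Gclc was at 25.8 CPM in Card14KI and 77.4 CPM in WT, 3.003-fold lower (2.55 to 3.54), and Gsr at 22.7 and 45.6 CPM, 2.01-fold lower (1.67 to 2.43). So both ligase subunits and the reductase were lower in the Card14KI basal class, and Nfe2l2 was at 80.6 CPM in Card14KI and 81.9 CPM in WT. The glutathione synthetase gene Gss, not one of the members, was within the limit, at 10.7 CPM in Card14KI and 14.8 CPM in WT.

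Of the 10 members highest in sebocytes and the 10 highest in fibroblasts in both libraries, 5 were called lower in basal cells, and others were not, such as Prdx1, at 937 CPM in Card14KI and 939 CPM in WT, and Gpx3, at 10.6 and 7.84 CPM. Gsta3, an alpha-class transferase, was at 7.78 CPM in Card14KI and 38.7 CPM in WT. Gsta4, which conjugates the lipid aldehyde 4-hydroxynonenal, was at 1.32 and 7.66 CPM, Akr1c13 at 1.42 and 14.4 CPM, Akr1c19 at 21.8 and 38.9 CPM, and Gpx8 at 15.2 and 28.3 CPM. The collagen genes Col1a1, Col1a2 and Col3a1 summed to 50.6 CPM in Card14KI and 237 CPM in WT basal cells, and the part of fibroblast RNA in the Gpx8 value was not tested. Slc7a11 was at 0.986 CPM in Card14KI and 15.9 CPM in WT, but 1 WT cell held 53 of its 87 UMIs. Gsta2 was the gene called higher, at 14.03 CPM in Card14KI and 3.10 CPM in WT. The remaining 31 measured members lay between -0.58 and 0.46 on the log2 scale, 26 of them below 0.

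The basal classes of the libraries were made up differently. Spinous-marked cells, with a spinous marker score of 0.3 or more, were 119 of the Card14KI basal cells (44.6%) and 30 of the WT basal cells (13.95%), with a median of 55445 and 43529 UMIs. Sebaceous-marked cells were 36 (13.5%) in Card14KI and 55 (25.6%) in WT, root-sheath-marked cells 36 (13.5%) and 62 (28.8%), and unmarked cells 76 (28.5%) and 68 (31.6%). Unmarked cells had a median of 9719.5 UMIs in Card14KI and 10125 UMIs in WT. Since UMIs were pooled, the deeper spinous-marked cells weighed more in the basal CPM than their share of cells. These subsets are ranges of a score and not cell types: 22 Card14KI and 11 WT cells lay within 0.05 of the spinous limit, 33 and 46 near the sebaceous limit, and 99 and 59 near the root sheath limit.

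Within the subsets the ligase genes differed unevenly. For scale, the outer root sheath and companion class of the WT library had Gclm at 219 CPM and Gclc at 163 CPM. In WT this was the class with the highest Gclc level. Gclm was at 73.5 CPM in Card14KI and 270 CPM in WT among root-sheath-marked cells, and at 62.7 and 166 CPM among unmarked cells. In sebaceous-marked cells it was at 271 CPM in Card14KI and 341 CPM in WT, and in spinous-marked cells at 28.1 and 37.7 CPM. Gclc was lower in the same pair of subsets, at 19.6 CPM in Card14KI and 117 CPM in WT root-sheath-marked cells and at 19.0 and 53.8 CPM in unmarked cells, and close in spinous-marked cells (23.4 and 21.2 CPM). Gsr was at 16.7 CPM in Card14KI and 85.8 CPM in WT root-sheath-marked cells, and close in unmarked (27.5 and 25.5 CPM) and spinous-marked cells (23.9 and 22.6 CPM). The root-sheath-marked subset held 0 Slc7a11 UMIs in Card14KI and 79 in WT. That subset also carried the hair follicle stem cell gene Lgr5 at 3.92 CPM in Card14KI and 102 CPM in WT, and the collagen gene Col1a1 at 7.84 and 201 CPM, so the subsets themselves were not alike. Each of the 4 subsets was then given the same weight in both libraries, set by its number of cells in both and not by UMIs. With these weights Gclm, Gclc and Gsta3 stayed past 1.5-fold (log2 ratios of -0.88, -0.84 and -0.75). Gsr (-0.54), Gpx8 (-0.39) and Gsta2 (0.25) did not, and Akr1c19 changed sign (0.46).

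Some basal differences sat in the sebaceous-marked and spinous-marked cells. Akr1c18 was at 4983 CPM in Card14KI and 2488 CPM in WT sebaceous-marked basal cells, 2.003-fold higher (1.89 to 2.12), although over the whole basal class it was at 383 CPM in Card14KI and 563 CPM in WT (log2 ratio -0.54, or 0.81 with the same subset weights). Akr1c19 was likewise at 296 and 174 CPM in sebaceous-marked cells, while Gsta3 was at 94.2 and 166 CPM there and Akr1c13 at 11.8 and 63.0 CPM. Gsta2 UMIs came from spinous-marked cells, 128 of 128 in Card14KI and 16 of 17 in WT, at 19.6 and 10.96 CPM.

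**Figure D3:**
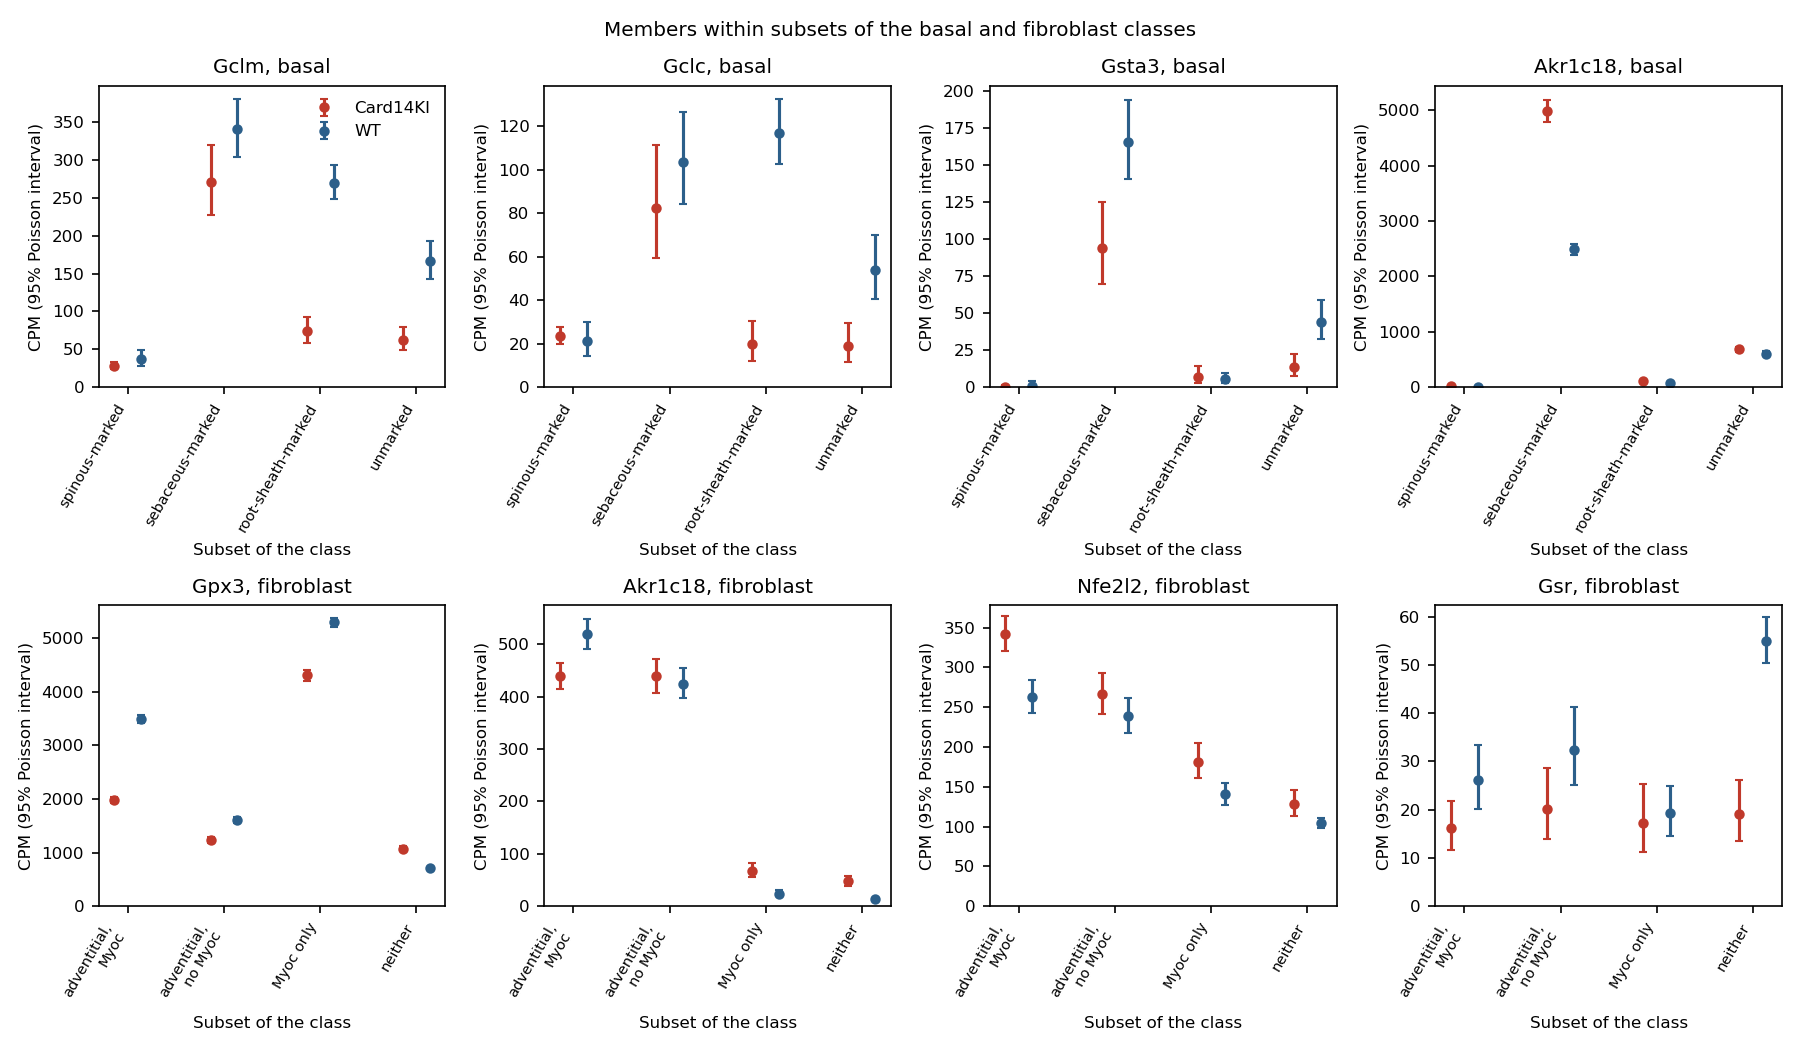
CPM with 95% Poisson intervals (vertical axis, linear from 0) within subsets of the basal class (top: Gclm, Gclc, Gsta3, Akr1c18) and of the fibroblast class (bottom: Gpx3, Akr1c18, Nfe2l2, Gsr), Card14KI in red left of WT in blue. Gclm and Gclc lie lower in Card14KI root-sheath-marked and unmarked basal cells and near WT in spinous-marked cells, and fibroblast Akr1c18 lies near WT in both adventitial-marked subsets.

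Spinous keratinocytes (305 Card14KI and 154 WT cells) were close between the libraries. Of 27 measured members 1 was higher and 2 were lower, against 1.02% and 0.985% of all measured genes. Slc7a11 was at 10.9 CPM in Card14KI and 2.75 CPM in WT, 3.97-fold higher (2.04 to 8.62), with 23 of the 74 Card14KI UMIs in 1 cell. The 6 neutrophil markers summed to 30.9 CPM in Card14KI and 15.9 CPM in WT spinous cells, with Csf3r at 0 in both and Clec4d at 0 in WT. Gpx3 was at 1.18 CPM in Card14KI and 13.5 CPM in WT, but 1 WT cell held 31 of its 49 UMIs, without which it was within the limit (-0.44), and the collagen genes Col1a1, Col1a2 and Col3a1 summed to 8.99 CPM in Card14KI and 151 CPM in WT spinous cells; the part of fibroblast RNA in this value was not tested. Akr1c18 was at 10.3 CPM in Card14KI and 21.4 CPM in WT, and its direction turned when the cell with most of its UMIs in each library was left out (log2 ratio 0.08, against -0.63 with it). The remaining 24 members lay between -0.42 and 0.52. Gsta2, whose highest level was in this class, was at 56.3 CPM in Card14KI and 36.2 CPM in WT, which was within the limit, and Gsta1 at 15.2 and 13.2 CPM.

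Granular keratinocytes (63 Card14KI and 58 WT cells) expressed few of the genes. Of 8 measured members 5 were higher and 1 lower, in a class where 24.6% of all measured genes were higher and 4.92% lower. The median log2 ratio was 0.84 over the 8 members and 0.32 over all genes. Scaling the class by the median gene in place of the total shifted all ratios by -0.30, which left 4 members higher and 1 lower; of all genes past the limit, 83.3% were higher by total scaling and 56.0% by median scaling. Txnrd1 went the other way from the class: it was at 282 CPM in Card14KI (255 to 312) and 582 CPM in WT (544 to 621), 2.06-fold lower (1.82 to 2.33), with a log2 ratio of -1.02, or -1.30 with median scaling. Some 89 of the 378 Card14KI UMIs were in 1 cell, and 30 of 63 Card14KI and 46 of 58 WT granular cells carried a UMI.

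The higher granular genes were Prdx1, at 152 CPM in Card14KI and 70.3 CPM in WT, Srxn1 at 38.8 and 12.6 CPM, Akr1a1 at 41.8 and 15.9 CPM, Gstm5 at 67.2 and 38.5 CPM, and Akr1c18 at 31.4 and 3.98 CPM. Of the 42 Akr1c18 UMIs in Card14KI granular cells 36 were in 1 cell, without which the gene was within the limit (log2 ratio 0.19, against 1.57), and the 10 sebocyte markers summed to 768 CPM in Card14KI and 322 CPM in WT, with Scd3 at 0 in Card14KI and Scd3, Pparg, Awat2 and Far2 at 0 in WT; the part of sebaceous RNA in this value was not tested. With predicted doublets kept, Txnrd1 fell short of the limit (-0.50) and 3 of the members stayed past it. The collagen genes summed to 5.98 CPM in Card14KI and 357 CPM in WT granular cells.

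In the upper follicle (56 Card14KI and 69 WT cells), the part of the hair canal next to the sebaceous duct, 3 of 23 measured members were higher and 1 was lower, against 5.33% and 8.97% of all measured genes. The median was 0.04 over the members and -0.09 over all genes. Gstm5 was at 475 CPM in Card14KI (435 to 517) and 270 CPM in WT (236 to 307), 1.76-fold higher (1.504 to 2.06), and was found in 53 of 56 Card14KI cells (94.6%) and 52 of 69 WT cells (75.4%), or in 56.4% and 26.2% of cells thinned to 2000 UMIs, with 1 Card14KI and 4 WT cells too shallow to thin. In T or NK cells the unthinned share was 1.48% and 5.38%, at a median of 3308 and 3171 UMIs against 10918 and 9502 UMIs in the upper follicle. Gpx2 was at 64.3 CPM in Card14KI and 19.8 CPM in WT, from 15 of 56 and 6 of 69 cells. Nqo1 was at 7.25 CPM in Card14KI and 19.8 CPM in WT, from 8 and 17 UMIs.

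Akr1c18 had the largest log2 ratio of the members in the upper follicle, 2.18, at 236 CPM in Card14KI and 44.2 CPM in WT. One Card14KI cell held 147 of its 261 UMIs, and the lowest log2 ratio under 9 alternative settings, among them leaving that cell out, was 1.20. The 10 sebocyte markers summed to 1652 CPM in Card14KI and 1311 CPM in WT upper follicle cells, with none at 0 in Card14KI and Pparg, Elovl3 and Far2 at 0 in WT; their part in the result was not tested. The cycling markers summed to 145 CPM in Card14KI and 17.5 CPM in WT. The other 19 members stayed between -0.19 and 0.46.

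**Figure D4:**
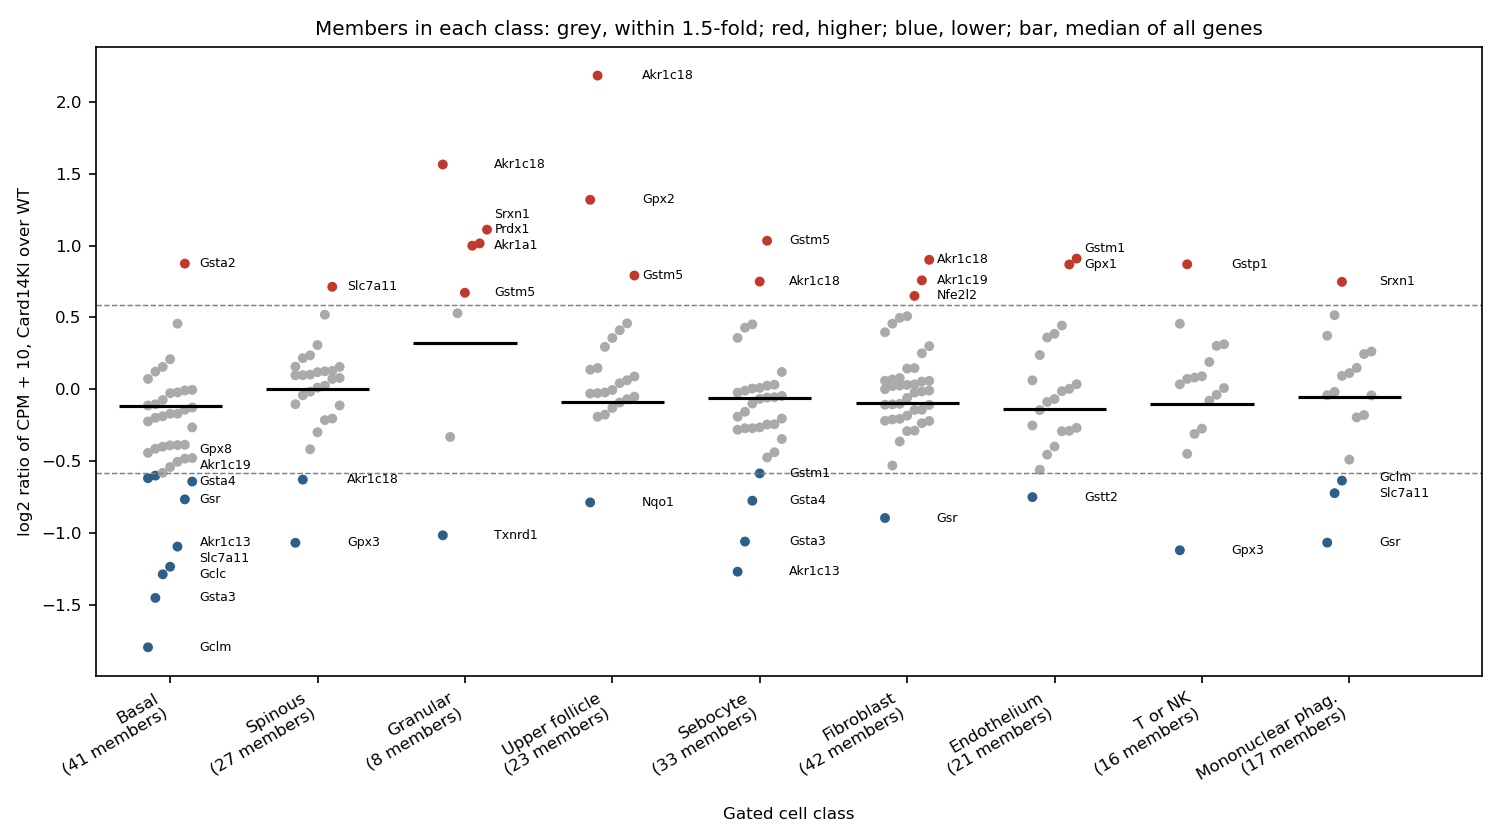
Log2 ratio of CPM + 10, Card14KI over WT (vertical axis), of each measured gene of the group in 9 classes, one point per gene, with genes past 1.5-fold (dashed lines) named, red higher and blue lower, and the median of all genes of the class as a black bar. The basal class holds 9 blue points, Gclm lowest at -1.80, and the granular median of all genes lies at 0.32.

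Sebocytes (189 Card14KI and 211 WT cells) showed opposite directions among genes that they express most. Of 33 measured members 2 were higher and 4 lower, against 0.864% and 1.16% of all measured genes; of all genes past the limit, 42.6% were higher by total scaling and 54.7% by median scaling. Akr1c18 was at 1955 CPM in Card14KI (1917 to 1994) and 1158 CPM in WT (1130 to 1187), 1.69-fold higher (1.64 to 1.74), and Gstm5 at 55.8 and 22.1 CPM, 2.52-fold higher (2.03 to 3.14). Gsta3 was at 94.1 CPM in Card14KI and 207 CPM in WT, 2.20-fold lower (1.98 to 2.46). Akr1c13, the next of these genes along the chromosome from Akr1c18, was at 16.6 CPM in Card14KI and 54.2 CPM in WT, 3.26-fold lower (2.55 to 4.21). Gsta4 was at 53.0 and 97.9 CPM, 1.85-fold lower (1.59 to 2.15), and Gstm1 at 18.0 and 32.0 CPM, 1.78-fold lower (1.37 to 2.32). Akr1c18 and Akr1c13, of 1 cluster, thus went different ways in the same cells. The Gstm1 value just passed the limit (log2 ratio -0.59), was past it under 5 of 9 alternative settings, and was within it with median scaling (-0.54).

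Sebocytes had a median of 21842 UMIs in Card14KI and 21502 in WT, and the 10 sebocyte markers summed to 26658 CPM in Card14KI and 20999.9 CPM in WT, none at 0. Gclm was at 141 CPM in Card14KI and 195 CPM in WT sebocytes, and Gclc at 80.0 and 78.5 CPM, both within the limit. Gpx4, Prdx1, Gstz1 and Akr1a1 were close between the libraries, Akr1a1 at 160 CPM in both. The 27 members within the limit lay between -0.47 and 0.45, 19 of them below 0.

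Fibroblasts (1325 Card14KI and 2067 WT cells) gave the deepest comparison. Of 42 measured members 3 were higher and 1 lower, against 2.4% and 4.04% of all measured genes. Nfe2l2 was at 240 CPM in Card14KI (229 to 251) and 149 CPM in WT (144 to 155), 1.61-fold higher (1.51 to 1.71), while Keap1 was at 30.4 and 37.0 CPM. Akr1c18 was at 265 and 137 CPM, 1.93-fold higher (1.82 to 2.05), and Akr1c19 at 12.4 and 3.24 CPM, 3.83-fold higher (2.72 to 5.44). Gsr was at 18.0 CPM in Card14KI and 42.0 CPM in WT, 2.34-fold lower (1.95 to 2.83). Scaling by the median gene shifted the fibroblast ratios by 0.15, which added Gstm1, Gstt1 and Txnrd1 to the higher members and left Gsr the lower one; over all genes past the limit, the share that was higher was 37.3% by total scaling and 53.9% by median scaling.

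The fibroblast classes too were made up differently. Adventitial-marked fibroblasts, with a score of 0.5 or more over Pi16, Dpp4, Cd55 and Sema3c, were 27.5% of Card14KI and 15.8% of WT fibroblasts when they held a Myoc UMI, and 20.2% and 13.7% when they held none. Fibroblasts with Myoc alone were 20.8% in Card14KI and 19.7% in WT, and those with neither mark 31.5% and 50.7%. A total of 190 Card14KI and 213 WT cells lay within 0.05 of the adventitial limit. Akr1c18 was at 439 CPM in Card14KI and 519 CPM in WT adventitial-marked cells with Myoc, and at 439 and 425 CPM in those without. In cells with neither mark it was at 47.0 and 13.0 CPM, and in cells with Myoc alone at 67.6 and 24.0 CPM. With the subsets given the same weight in both libraries, the log2 ratio of Akr1c18 was 0.07, that of Nfe2l2 0.29 and that of Akr1c19 0.49, all within the limit, and that of Gsr was -0.77.

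Other fibroblast genes also depended on the subset. Nfe2l2 was 1.30-fold higher (1.18 to 1.44) in adventitial-marked cells with Myoc, at 342 CPM in Card14KI and 262 CPM in WT, and 1.12-fold higher (0.978 to 1.28) in those without. Gsr was at 19.0 CPM in Card14KI and 55.1 CPM in WT cells with neither mark, and at 17.2 and 19.2 CPM in cells with Myoc alone. Gpx3, even over the whole class, was at 4311 CPM in Card14KI and 5301 CPM in WT cells with Myoc alone, at 1977 and 3494 CPM in adventitial-marked cells with Myoc, and at 1069 and 715 CPM in cells with neither mark. Akr1c14 was at 214 CPM in Card14KI and 460 CPM in WT cells with Myoc alone, and at 101 and 89.3 CPM in cells with neither mark. Within each of the 4 subsets Col1a1 was lower in Card14KI, for example at 6067 CPM in Card14KI and 15397 CPM in WT cells with neither mark.

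In the endothelial class (73 Card14KI and 90 WT cells) 2 of 21 measured members were higher and 1 lower, against 4.26% and 9.86% of all measured genes. Gpx1 was at 628 CPM in Card14KI (583 to 676) and 340 CPM in WT (307 to 375), and Gstm1 at 147 and 73.7 CPM. Gstt2, whose 3' end resembles stretches of other genes, was at 26.0 CPM in Card14KI and 50.6 CPM in WT. Nqo1 was 58.1 and 79.7 CPM here, within the limit.

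In T or NK cells (135 Card14KI and 279 WT cells) 1 of 16 measured members was higher and 1 lower, against 4.47% and 12.4% of all genes: Gstp1 was at 89.1 CPM in Card14KI and 44.2 CPM in WT, and Gpx3 at 4.05 and 20.6 CPM, from 2 and 20 UMIs, where the 3 collagen genes summed to 30.4 CPM in Card14KI and 270 CPM in WT. Median scaling shifted the T or NK ratios by -0.11; of all genes past the limit, 26.5% were higher by total scaling and 15.9% by median scaling. In mononuclear phagocytes (72 Card14KI and 173 WT cells) 1 of 17 was higher and 3 lower, against 6.61% and 9.85%. Srxn1 was at 57.7 CPM in Card14KI and 30.3 CPM in WT. Slc7a11 was at 113 and 193 CPM, Gsr at 57.7 and 132 CPM and Gclm at 37.7 and 64.2 CPM, the last with an interval of the ratio that holds 1. The 6 neutrophil markers summed to 169 CPM in Card14KI and 263 CPM in WT phagocytes, with Cxcr2 and Retnlg at 0 in both, and their part in the values was not tested.

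A further 67 genes of the same pathways, among them metallothioneins, ferritins, microsomal transferases and the heme oxygenase Hmox1, were read in the same way. Of those measured in basal cells, 4 of 63 were higher and 12 lower, where 2.91% and 5.99% of all measured genes were. In granular cells 17 of 45 were higher and 2 lower, against 24.6% and 4.92% of all genes. In spinous cells 2 of 60 were higher and 0 lower (1.02% and 0.985% of all genes), and in the upper follicle 5 of 55 were higher and 6 lower (5.33% and 8.97%). Sebocytes had 2 of 61 higher and 1 lower (0.864% and 1.16%), and fibroblasts 7 of 64 higher and 2 lower (2.4% and 4.04%). In endothelium 5 of 54 were higher and 3 lower (4.26% and 9.86%), in T or NK cells 2 of 47 higher and 4 lower (4.47% and 12.4%), and in mononuclear phagocytes 4 of 54 higher and 2 lower (6.61% and 9.85%).

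The metallothioneins Mt1 and Mt2, which bind metal ions, were among the 3 highest ratios in several classes. Mt1 was at 2354 CPM in Card14KI and 942 CPM in WT fibroblasts, at 2028 and 1143 CPM in basal cells, at 610 and 267 CPM in sebocytes, at 794.5 and 269 CPM in the upper follicle and at 1779 and 702 CPM in mononuclear phagocytes. In spinous cells Mt1 was close, at 454 CPM in Card14KI and 403 CPM in WT, as in endothelium, at 216 and 198 CPM. Mt2 was at 156 CPM in Card14KI and 174 CPM in WT spinous cells. Hmox1, which breaks down heme and is an NRF2 and BACH1 target, was at 477 CPM in Card14KI and 194 CPM in WT fibroblasts, at 239 and 72.0 CPM in endothelium and at 1484 and 775 CPM in phagocytes, but lower in granular cells, at 834 CPM in Card14KI and 1299 CPM in WT, in basal cells, at 13.8 and 25.9 CPM, and in the upper follicle, at 12.7 and 27.9 CPM. Sqstm1, an autophagy adaptor that binds KEAP1, was at 256 CPM in Card14KI and 82.2 CPM in WT granular cells, at 315 and 195 CPM in spinous cells and at 99.96 and 50.9 CPM in basal cells.

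The lowest ratios of the basal class were those of Mgst1, Slc3a2 and Ggt1. Mgst1, a microsomal transferase, was at 138 CPM in Card14KI and 333 CPM in WT. Slc3a2, the heavy chain partner of the Slc7a11 transporter, was at 91.1 and 226 CPM. Ggt1, which cleaves extracellular glutathione, had 0 UMIs in Card14KI, where 3 UMIs would be 0.329 CPM, and 77 UMIs (14.05 CPM) in WT. Mgst1 was higher in Card14KI granular cells, at 59.0 CPM, against 8.62 CPM in WT. In sebocytes Mgst1 was at 7391 CPM in Card14KI and 5843 CPM in WT. The sebocyte markers summed to 768 CPM in Card14KI and 322 CPM in WT granular cells. Sebaceous-marked cells were 13.5% of Card14KI and 25.6% of WT basal cells. The part of sebaceous RNA in the granular and basal Mgst1 values was not tested. In fibroblasts Mgst3, another microsomal form, was at 31.9 CPM in Card14KI and 114 CPM in WT, and in sebocytes Ftl1, a ferritin light chain, was at 158 and 311 CPM.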

How the data were processed

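UMI counts per gene and cell were deposited as filtered matrices. Per the submitters' processing notes they were made with Cell Ranger 6.0.2 on mm10, while the file headers name 5.0.0; no annotation release is named there. Cells with 500 or more genes and under 20% mitochondrial UMIs were kept. Scrublet (scanpy 1.11.5) marked 3 Card14KI and 2 WT cells by its own threshold, so the top-scoring 78 and 174 cells, the platform's rate of 0.8% per 1000 cells, were removed.

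Marker values, log2(1 + UMIs per 10000) divided by their 99th percentile, were averaged per class. A cell needed a lineage score of 0.25 and a lead of 0.1 over the next, and 0.05 among epithelial classes. Classes with 40 or more cells in each library were compared and those with 10 or more were given as levels. UMIs were summed per class and divided by the class total. Intervals were exact Poisson, binomial or conditional binomial. Data simulated from the real counts, with 200 of the genes of 1 class changed, checked the comparison code.

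Named with values were members at 100 CPM or more in any class, members past 1.5-fold in keratinocyte classes, sebocytes or fibroblasts with an interval leaving out 1, and Nfe2l2 and Keap1. Gpx7, Gstp3, Gstt2 and the differences given for the endothelial and immune classes fall outside that rule and were named after their values were seen, as were Lgr5, Col1a1 and Gss. The members, the gene lists and the markers were chosen with earlier results of these data known, and the gate and subset limits after seeing the data. Alternatives were other cell filters, doublets kept, a stricter gate, median-ratio scaling, a pseudocount of 1 CPM, a minimum of 5 UMIs, cells weighted equally, and the top cell of a gene left out. Mast, Schwann and red cell gates gave too few cells to be used.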

Additional observations from a re-analysis of the deposited data

Results flagged for a closer look

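The genes Akr1c18, Akr1c19, Gstm1 and Slc7a11 lay past 1.5-fold in opposite directions in different classes. None of these differences between classes was tested, since each class comes from the same 2 libraries.

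Akr1c18 was lower in Card14KI spinous cells (log2 ratio of CPM + 10, Card14KI over WT, -0.63) and higher in granular cells (1.57), the upper follicle (2.18), sebocytes (0.75) and fibroblasts (0.90). Single cells held 36 of the 42 Card14KI UMIs in the granular class, 147 of 261 in the upper follicle and 54 of the 78 WT UMIs in the spinous class. Akr1c19 was lower in basal cells (-0.62) and higher in fibroblasts (0.76). Gstm1 was lower in sebocytes (-0.59) and higher in endothelium (0.91); the sebocyte value was past the limit under 5 of 9 alternative settings. Slc7a11 was lower in basal cells (-1.24) and mononuclear phagocytes (-0.72) and higher in spinous cells (0.71), with 53 of the 87 WT basal UMIs in 1 cell.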

How the results depend on the processing

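No paired analysis was possible because each genotype has 1 library, and no replicate could be left out. The number of members past 1.5-fold moved by over 1.5 times under these alternatives: with a pseudocount of 1 CPM it was 16 in basal cells (10 as reported), 5 in endothelium (3), 10 in sebocytes (6) and 6 in spinous cells (3); with cells weighted equally 7 in endothelium, 1 in fibroblasts (4) and 7 in the upper follicle (4); with median-ratio scaling 7 in fibroblasts; with doublets kept 3 in granular cells (6); without the top cell of each gene 1 in spinous cells; with a stricter gate 1 in T or NK cells (2); and with 5 or more UMIs 6 in T or NK cells and 7 in the upper follicle. With the same subset weights in both libraries, chosen after seeing the data, it was 1 in fibroblasts, and 7 of the 14 basal and fibroblast results past the limit stayed past it. Akr1c18 in spinous cells turned to 1.08 with doublets kept, 0.46 with a stricter gate and 0.0783 without the top cell, against -0.63; Akr1c19 in basal cells turned to 0.46 with the same subset weights, against -0.62. Akr1c18 in basal cells, within the limit at -0.54, was at 0.81 with those weights. The cause was not tested. Of the 42 member results past the limit, 32 stayed past it with cells weighted equally, 36 without the top cell, 34 of the 40 measured with the stricter gate, 38 with doublets kept and 38 with median-ratio scaling. Gclm, Gclc, Gsta3, Akr1c13 and Slc7a11 in basal cells, Gsta3, Gsta4, Akr1c13, Akr1c18 and Gstm5 in sebocytes and Gsr in fibroblasts stayed past it under every alternative that could be computed, 10 in basal cells and fibroblasts and 9 in sebocytes. So did Gstm5, Gpx2, Akr1c18 and Nqo1 in the upper follicle, Srxn1 in granular cells, and Gpx1, Gstm1 and Gstt2 in endothelium. The same held for Gstp1 and Gpx3 in T or NK cells and for Gsr and Srxn1 in mononuclear phagocytes. The stricter cell filter left no neutrophils, so their levels could not be set under it. With 1 mouse per genotype, differences between mice and between genotypes cannot be told apart, and genes under about 20 UMIs in a class could not be compared.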
